A study of Mus musculus with 4 samples.

Results

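Pf4, Ppbp, Selp, Sparc, Srgn, Mmrn1 and Clu encode proteins that mouse platelets carry in their alpha granules, and these 7 cargo transcripts were followed through 4 platelet RNA libraries. The genes were chosen by name, as well-known granule cargo, with earlier results of these data known. All 7 were listed in both deposited tables, out of 17995 genes listed in either table and 14652 in both. The libraries came from platelets of wild-type littermates of 3 months (WT), of mice with the genotype label HuR cKO at the same age, of wild-type mice of 3 months (Young) and of wild-type mice of 24 months (Old). Per the design text all mice were male, the HuR deletion was conditional and meant for platelets, and platelets of 7 mice were combined into each library. The Cre driver, the strain and any sorting of the platelets are not given in the sources used here.

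Alpha granules are the most abundant secretory organelles of platelets. Their proteins are mostly made in the megakaryocyte, packed around the proteoglycan serglycin or sorted through multivesicular bodies, and released or moved to the cell surface when the platelet is activated. Platelets have no nucleus, so the messenger RNAs in them are those inherited from the megakaryocyte and not yet degraded. HuR, encoded by Elavl1, binds U-rich and AU-rich stretches, often in 3' untranslated regions (UTRs), and is known for altering the stability and translation of its target messages.

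Elavl1, the gene named by the knockout label, was covered by 876 reads in WT and 1481 in the library labelled cKO, and by 621 in Young and 527 in Old. The library labelled cKO was thus 1.66 times WT (95% interval 1.53 to 1.81) and 2.62 times Young (2.38 to 2.88). These reads go against the label, while WT itself was 1.54 times Young (1.39 to 1.71). Counts per gene cannot show whether an exon is missing. Directions given for that library are those of the library labelled cKO.

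Recovered totals lay between 17702341 and 18472149 reads per library. There was 1 library per group, so no difference has a replicate check, no test was possible, and each interval covers counting error only. The words rose and fell are kept for genes with 100 reads or more in the larger library and a 95% interval that lies entirely at or beyond a 2-fold difference (the size rule). The 20 platelet identity genes all had reads in every library, summing to 68511 to 89828 RPM (reads scaled to the library total). Markers of other blood cells moved between libraries. Erythroid markers summed to 8267 RPM in WT against 16125 in the library labelled cKO, and to 21544 in Young against 11257 in Old, and neutrophil markers to 74.7, 42.6, 33.4 and 862 in the same order. Ahsp, a red-cell chaperone, and Elane, a neutrophil protease, were not listed in either deposited table and were counted as 0. Of the 18 erythroid markers 17, 17, 16 and 17 had reads in the same order, and of the 18 neutrophil markers 12, 10, 12 and 17.

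The promoters of 4 genes are shown because these genes carry the main contrasts: Pf4 and Ppbp are tandem chemokine genes that differ in their pattern, and Selp and Mmrn1 lie on different chromosomes yet had nearly the same ratios. Each line gives the 250 bases before the RefSeq start on the gene's own (plus) strand, GRCm38.p6, with matches to the searched motifs in capitals. RefSeq promoter entries matched 6 of the 7 genes.
Pf4, chr5:90772185-90772434: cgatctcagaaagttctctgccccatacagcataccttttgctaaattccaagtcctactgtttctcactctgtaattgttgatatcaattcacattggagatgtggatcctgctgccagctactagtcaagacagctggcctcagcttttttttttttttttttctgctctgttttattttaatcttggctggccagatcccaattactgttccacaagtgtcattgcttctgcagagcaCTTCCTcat
Ppbp, chr5:90768268-90768517: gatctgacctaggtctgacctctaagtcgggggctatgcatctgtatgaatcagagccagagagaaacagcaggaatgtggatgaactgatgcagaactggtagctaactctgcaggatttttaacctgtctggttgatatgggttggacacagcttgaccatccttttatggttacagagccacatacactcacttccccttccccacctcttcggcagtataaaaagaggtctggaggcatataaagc
Selp, chr1:164115014-164115263: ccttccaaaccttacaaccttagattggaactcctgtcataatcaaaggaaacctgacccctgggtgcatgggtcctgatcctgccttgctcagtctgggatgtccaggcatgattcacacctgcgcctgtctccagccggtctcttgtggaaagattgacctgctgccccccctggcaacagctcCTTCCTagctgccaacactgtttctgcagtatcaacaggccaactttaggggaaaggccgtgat
Mmrn1, chr6:60944067-60944316: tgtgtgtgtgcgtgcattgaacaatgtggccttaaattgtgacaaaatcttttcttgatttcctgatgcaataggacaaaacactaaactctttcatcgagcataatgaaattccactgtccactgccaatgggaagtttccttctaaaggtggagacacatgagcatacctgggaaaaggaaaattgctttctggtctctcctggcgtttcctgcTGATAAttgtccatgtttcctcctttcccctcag
The search covered both strands for motifs of megakaryocyte factors, which do not overlap one another: the motif of the GATA factors (spelled AGATAA, or else TGATAA), that of the ETS factors (spelled AGGAAG) and that of NF-E2/AP-1 (spelled TGACTCA, or else TGAGTCA). The Pf4 window held an ETS match on the minus strand, 9 bases before the start, and the Selp window held one 64 bases before it, both printed as the reverse complement. The Mmrn1 window held a GATA match on the plus strand, 34 bases before the start. Ppbp, Sparc and Srgn had no match in their windows. Of 32851 promoter windows of this length, 16.6% held a GATA match, 29.5% an ETS match and 4.46% an NF-E2/AP-1 match. The RefSeq start of Mmrn1 lies within the deposited gene, which begins at 60924976.

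Short 3' UTR sites are shown for Selp and Mmrn1 because AUUUA, a core of AU-rich elements, is a kind of sequence that HuR can bind. The sites are given as DNA on the sense strand with ATTTA in capitals, named by the number of bases after the stop codon.
Selp, 966: tttatatgtaATTTAatgcacatat
Selp, 979: taatgcacatATTTAataaataagt
Mmrn1, 54: tctccttttcATTTAtccttacatg
Mmrn1, 572: actaatgcctATTTAgacattttac
Mmrn1, 738: taataaagggATTTAaagatggact
Counts were made in the GENCODE M21 transcript chosen as principal for each gene, and the share in brackets is that of 3' UTRs of like length (0.8 to 1.25 times, among 13634) with at least 1 match. Srgn held 4 matches (74.7%), Mmrn1 3 (65.8%), Selp 2 (73.9%), Pf4 1 (19.9%), Ppbp 1 (60.2%), Sparc 1 (76.4%) and Clu 0 (31.2%). None of the 7 held the longer element TTATTTATT, which contains ATTTA. A 3' UTR as long as that of Srgn had at least as many ATTTA matches in 15.9% of cases, one as long as that of Mmrn1 in 18.9% and one as long as that of Selp in 46.4%. For Pf4, Ppbp and Sparc, with 1 match each, the share in brackets is that share. The looser U-rich pattern NNTTNNTTT (N is any base) matched 2 times in Selp and 4 times in Mmrn1, where the medians at like length were 5 and 3. It matched 9 times in Ppbp, 8 in Sparc and 10 in Srgn, where the medians at like length were 2, 5 and 5. At least as many matches were found in 11.2%, 35.3% and 24.4% of 3' UTRs of those lengths, and in 79.5% for Selp and 45.8% for Mmrn1. Pf4 and Clu had no match, and their medians at like length were 0. A match here is a run of letters and not a shown binding site.

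The levels of the 7 transcripts ran from rank 4 (Ppbp) to rank 3821 (Sparc) among 13174 protein-coding genes in WT. Levels between genes are compared as RPKM, reads per kilobase of deposited gene length scaled to the library total. In all 4 libraries the order was Ppbp, Pf4, Clu, Srgn, Mmrn1, Selp and Sparc. The closest neighbours in that order were Pf4 and Ppbp in Old, where the level of Pf4 was 0.814 of that of Ppbp (0.809 to 0.820). Whether such gaps exceed the spread between pools of mice was not tested.

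Ppbp encodes the precursor of beta-thromboglobulin and of a neutrophil-attracting chemokine that acts on Cxcr2 (ENSMUSG00000029372, mm10 chromosome 5, 90768518 to 90770063, plus strand, 3 exons). Its reads numbered 437755 in WT and 357494 in the library labelled cKO, against 316575 in Young and 258135 in Old. Its levels were 22483, 18647, 16109 and 12903 RPKM in that order, rank 4 or 5 of the protein-coding genes in every library. WT was highest and Old lowest, and the 3 libraries of 3 months already covered a wide span.

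Pf4, platelet factor 4, is a chemokine that binds heparin-like chains (ENSMUSG00000029373, chromosome 5, 90772435 to 90773383, plus strand, 3 exons), and it begins 2371 bases after the end of Ppbp. WT held 124855 reads, the library labelled cKO 87700, Young 134253 and Old 139973, or 9632, 6871, 10262 and 10510 RPKM. The library labelled cKO was the low one, and WT, Young and Old lay close together. Pf4 therefore did not follow the order of libraries of its neighbour Ppbp.

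Srgn encodes serglycin, the core protein whose glycosaminoglycan chains hold Pf4 and other basic cargo in the granule (ENSMUSG00000020077, chromosome 10, 62493833 to 62527451, minus strand, 4 exons). Its reads numbered 63106 in WT and 46985 in the library labelled cKO, against 48195 in Young and 50995 in Old. Per length these were 1598, 1209, 1209 and 1257 RPKM. WT stood above the other 3, which differed little among themselves.

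Mmrn1 encodes multimerin 1, a large polymeric protein that binds coagulation factor V (ENSMUSG00000054641, chromosome 6, 60924976 to 60989378, plus strand, 8 exons). WT held 38006 reads, the library labelled cKO 19022, Young 35139 and Old 34309, or 360, 183, 330 and 317 RPKM. The library labelled cKO was the low one, and its rank among protein-coding genes was 249 against 144 to 164 in the others.

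Selp encodes P-selectin, the granule membrane receptor that reaches the surface on activation and binds leukocytes through Selplg (ENSMUSG00000026580, chromosome 1, 164115264 to 164150026, plus strand, 16 exons). Its reads numbered 1419 in WT and 702 in the library labelled cKO, against 1356 in Young and 1480 in Old. The levels were 17.9, 8.99, 16.9 and 18.2 RPKM. Again only the library labelled cKO stood low. Of the Selp exon bases 14.1% are shared with the antisense gene Gm16587 or the lincRNA Gm16548, and the sources used here do not say whether counting used strand.

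Clu encodes clusterin, a secreted chaperone also called apolipoprotein J (ENSMUSG00000022037, chromosome 14, 65968483 to 65981547, plus strand, 9 exons). WT held 148108 reads, the library labelled cKO 166090, Young 164342 and Old 194171, or 2397, 2730, 2635 and 3058 RPKM. Old was highest and WT lowest. Sparc encodes the collagen-binding matricellular protein osteonectin (ENSMUSG00000018593, chromosome 11, 55394500 to 55423183, minus strand, 10 exons). Its reads numbered 169 in WT and 173 in the library labelled cKO, against 195 in Young and 161 in Old, which is 2.48, 2.58, 2.84 and 2.3 RPKM. Sparc was present at a low level in every library, and its small counts leave wide intervals.

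**Figure D1:**
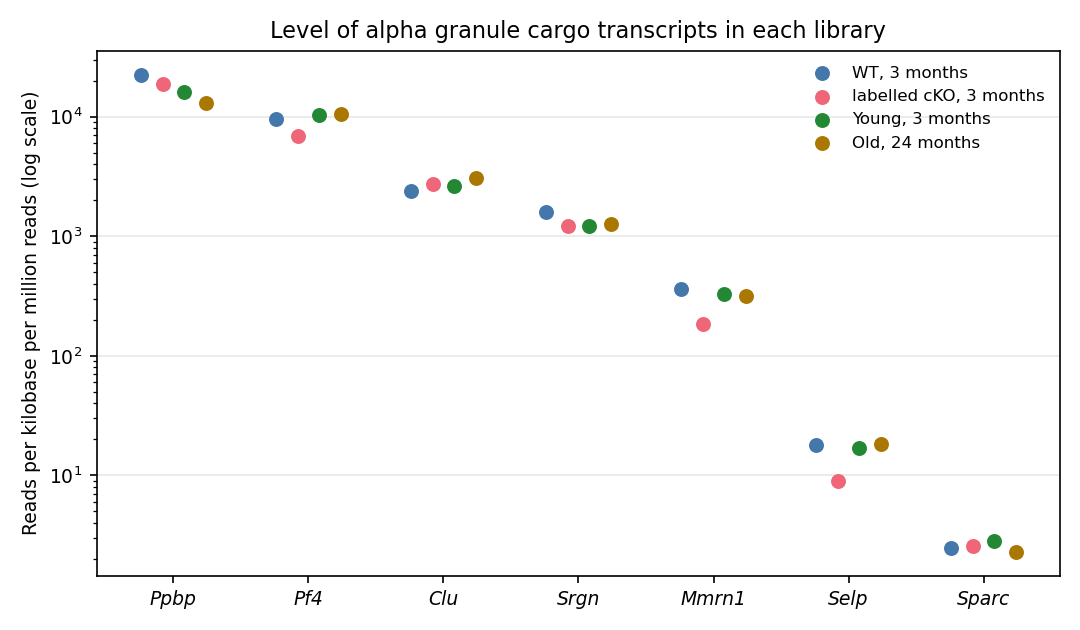
Level of each cargo transcript in RPKM, reads per kilobase scaled to the library total (vertical axis, log scale), with 1 point per library and no error bars because each group is 1 pooled library. Ppbp reaches 22483 in WT and Sparc stays between 2.3 and 2.84, and the library labelled cKO is the lowest point for Pf4, Mmrn1 and Selp.

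Set against WT, its littermate control, the library labelled cKO had its lowest cargo ratios in Selp and Mmrn1. Selp was 0.486 times WT (0.443 to 0.532) and Mmrn1 was 0.492 times WT (0.483 to 0.5). Pf4 was 0.690 times WT (0.684 to 0.696), Srgn 0.731 times (0.723 to 0.740) and Ppbp 0.802 times (0.799 to 0.806). Clu was 1.10 times WT (1.09 to 1.11), and for Sparc, at 1.01 times (0.809 to 1.25), a difference was not detectable at this depth. None of the 7 passed the size rule, which 265 of 6273 tested genes did (4.22%).

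Mmrn1 missed that rule narrowly, with an interval bound of 1.999-fold where 2-fold was asked. Genes with a ratio of 0.5 or less made up 3.67% of those tested, and the ratios of Selp and Mmrn1 had 3.22% and 3.44% of tested genes at or below them. At a bound of 1.5-fold both passed as lower, as 848 of 6273 tested genes (13.5%) passed in either direction. In the authors' deposited table Selp had a log2 fold change of -1.04 with p = 0.0132 and adjusted p = 0.152, and Mmrn1 one of -1.02 with p = 0.0135 and adjusted p = 0.152. Those p-values compare a pair of libraries and not the genotypes. In the authors' deposited table the adjusted p of the other 5 transcripts ranged from 0.569 to 1.

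The median log2 ratio of the 7 transcripts was -0.45, with 5 ratios below 1, and that of all 11537 genes with at least 20 reads over both libraries was -0.01. Platelet identity genes had a median of -0.06 over 19 genes, and 18 of the 19 had a higher ratio than Selp and than Mmrn1. The exception was Plek, at 0.450 times WT. Relative to that median Selp was lower by a log2 difference of -0.99, Mmrn1 by -0.97, Pf4 by -0.48, Srgn by -0.40 and Ppbp by -0.26. Clu was 0.20 above it. In bulk RNA, fewer platelets of a kind and less RNA per platelet cannot be told apart. In this comparison 10 of 12 tested erythroid markers rose and Hba-a2 fell, and their part in the cargo ratios was not tested.

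The other wild-type library of 3 months gave a second control. Against Young, Selp in the library labelled cKO was 0.568 times (0.518 to 0.622) and Mmrn1 0.594 times (0.583 to 0.604). Pf4 was 0.716 times Young (0.710 to 0.723). For these 3 transcripts the library labelled cKO was lower than either wild-type library of its age. Ppbp at 1.24 times Young and Srgn at 1.07 times lay on the other side of 1, so their direction turned with the control. The median log2 ratio of the 7 was -0.04 against Young (3 ratios above 1 and 4 below), beside -0.45 against WT. None of the 7 passed the size rule against Young (2.86% of tested genes did).

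**Figure D2:**
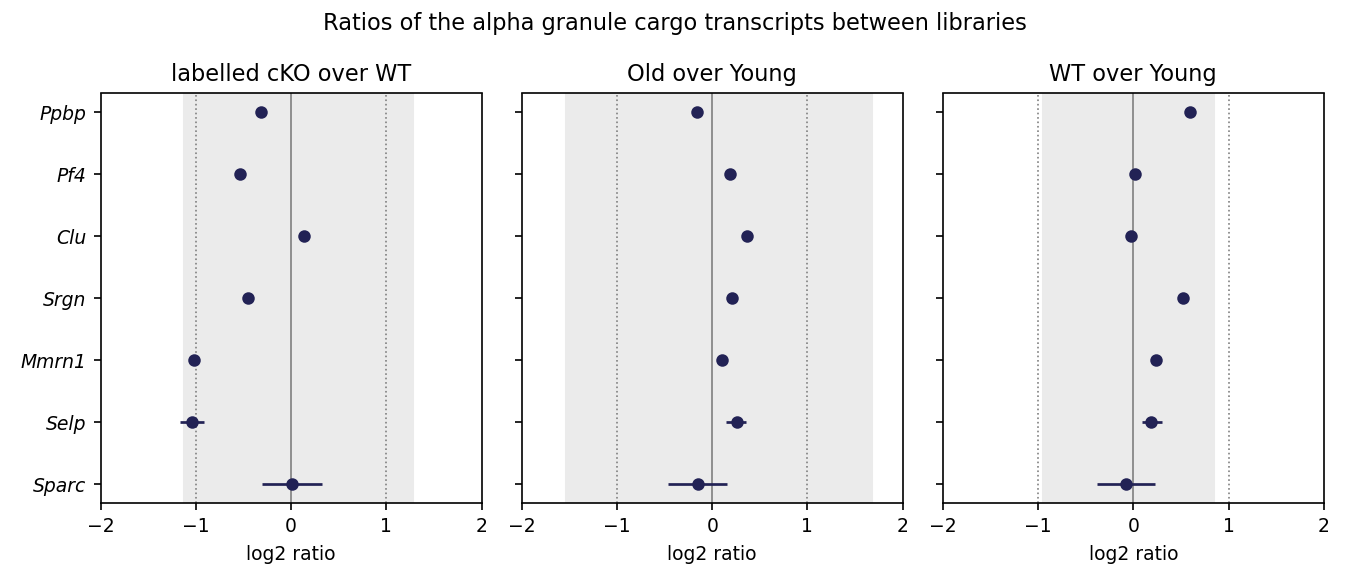
Log2 ratio of each cargo transcript between libraries (horizontal axis), with horizontal bars for the 95% counting interval, grey bands for the central 95% of all tested genes and dotted lines at 2-fold. Selp (-1.04) and Mmrn1 (-1.02) lie beside the dotted line in the comparison of the library labelled cKO with WT, and no point leaves the grey band in any panel. In the middle panel the sign of 5 transcripts depends on the library scaling, as the text describes.

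Old was compared with Young to ask how the cargo transcripts differ with age. Clu was 1.29 times Young (1.29 to 1.3), Selp 1.2 times (1.11 to 1.29), Srgn 1.16 times (1.14 to 1.17), Pf4 1.14 times (1.13 to 1.15) and Mmrn1 1.07 times (1.05 to 1.09). Ppbp was 0.893 times Young (0.888 to 0.897), and Sparc, at 0.904 times (0.729 to 1.12), did not differ detectably at this depth. None of the 7 passed the size rule, which 558 of 6519 tested genes did (8.56%). In the authors' deposited table the adjusted p of the 7 in this comparison ranged from 0.605 to 0.925. Against WT, the other control of 3 months, Ppbp in Old was 0.591 times, Srgn 0.810 times and Mmrn1 0.905 times, while Clu was 1.31 times and Pf4 1.12 times. Selp at 1.05 times WT (0.971 to 1.12) and Sparc at 0.955 times (0.764 to 1.19) did not differ detectably. None of the 7 passed there (8.75% of tested genes did), and Srgn and Mmrn1 lay on the other side of 1 than against Young.

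These ageing ratios were small against the choice of scale. The median log2 ratio of the 7 was 0.19, that of all genes -0.06 and that of the 20 platelet identity genes 0.49. When the platelet identity median was set as the scale, all genes shifted by -0.50, all 7 transcripts lay below 1, and their log2 ratios ran from -0.67 for Ppbp to -0.13 for Clu. Pf4, Selp, Srgn, Clu and Mmrn1 changed sign there, and Mmrn1 also under total reads. Ppbp and Sparc were below 1 under the scalings by trimmed mean (TMM), total reads, DESeq2 size factors and platelet identity, and under the upper quartile Ppbp was at -0.02 and Sparc at 0.00. Relative to platelet identity genes, 19 of 20 had a higher ratio than Ppbp and 13 of 20 a higher ratio than Clu.

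Markers of white cells moved beside these ratios: 10 of 15 tested B cell and plasma cell markers fell in Old, and 3 of 6 tested monocyte and macrophage markers rose (Ccr2, Cd14 and Csf1r). The monocyte and macrophage list as a whole summed to 3530 RPM in Young and 2577 in Old, with 7 ratios above 1 and 5 below. Over all tested genes 4.26% rose and 4.3% fell in Old over Young. Of the nuclear and dividing-cell markers Malat1 and Neat1 rose in Old, among 7 tested, and Neat1, Nusap1 and Ube2c rose in the library labelled cKO over WT, among 6 tested. Of the neutrophil markers 12 of 12 tested rose in Old, while Camp, Il1r2, Ltf, Ly6g and Mpo were at 0 in Young. Srgn is also made by neutrophils and other white cells, and the part of such cells in its ratio was not tested. Endothelial cells also make Selp, Mmrn1 and Sparc. Endothelial markers summed to 7512, 8715, 8488 and 10906 RPM in WT, the library labelled cKO, Young and Old, mostly from Vwf and Pecam1, which platelets carry too. All 18 endothelial markers had reads in every library. None passed the size rule, among 10 tested in the library labelled cKO over WT and 11 in Old over Young. Cldn5, a tight junction gene of endothelium, was among those with too few reads to be tested, at 8, 13, 3 and 13. The part of endothelial cells in the cargo ratios was not tested. Fibroblast markers, of interest for Sparc, summed to 15, 22.9, 17.7 and 24.3 RPM, and their part in the Sparc counts was not tested.

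WT and Young were both wild-type pools of 3 months, so their ratio shows how far these 2 libraries lay apart. WT came from littermates in the knockout comparison and Young from the ageing comparison. Spread between pools and any difference between these sets of mice or their processing cannot be told apart. Ppbp in WT was 1.51 times Young (1.5 to 1.52) and Srgn 1.43 times (1.41 to 1.45). On this scale those gaps, 0.60 and 0.52 in log2, were wider than the gap of either gene between the library labelled cKO and WT or between Old and Young. On the platelet identity scale they were not: Ppbp was at 0.46 beside -0.67 in Old over Young, and Srgn at 0.38 beside -0.40 in the library labelled cKO over WT. Under total reads Srgn was at 0.40 beside -0.40. Mmrn1 at 1.18 times (1.16 to 1.2) and Selp at 1.14 times (1.06 to 1.23) lay closer together, and Pf4 at 1.02, Clu at 0.985 and Sparc at 0.947 were nearest to 1. None of the 7 passed the size rule (64 of 6373 genes did, 1%). At a bound of 1.5-fold Ppbp passed, as did 5.32% of tested genes. On the log2 scale the gap of Selp was 0.19 and that of Mmrn1 0.24, beside -1.04 and -1.02 in the library labelled cKO over WT. WT and Young each also serve as a control above, so the 3 comparisons are not independent.

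Ratios between transcripts within a library need no scaling between libraries. The level of Selp was 0.0496 of that of Mmrn1 in WT (0.0471 to 0.0523), 0.0491 in the library labelled cKO (0.0454 to 0.0529), 0.0513 in Young (0.0486 to 0.0542) and 0.0574 in Old (0.0544 to 0.0604). The first 3 intervals overlap, so a difference in this ratio among the libraries of 3 months was not detectable at this depth. The level of Mmrn1 over that of Clu was 0.150 in WT and 0.0671 in the library labelled cKO, beside 0.125 in Young and 0.103 in Old. The level of Pf4 over Ppbp was 0.428, 0.368, 0.637 and 0.814 in that order. WT and the library labelled cKO were the low pair by this measure, and Young and Old the high pair.

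The 7 transcripts together took 4.52% of all WT reads, and 3.83% in the library labelled cKO, with 3.86% for Young and 3.68% for Old. Ppbp made up 53.8% of these cargo reads in WT and 52.7% in the library labelled cKO, with 45.2% for Young and 38% for Old. Clu made up 18.2%, 24.5%, 23.5% and 28.6%, and was the second largest part throughout. Mmrn1 made up 4.67%, 2.80%, 5.02% and 5.05%, lowest in the library labelled cKO. Selp stayed between 0.104% and 0.218%, and Sparc between 0.0208% and 0.0279%.

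**Figure D3:**
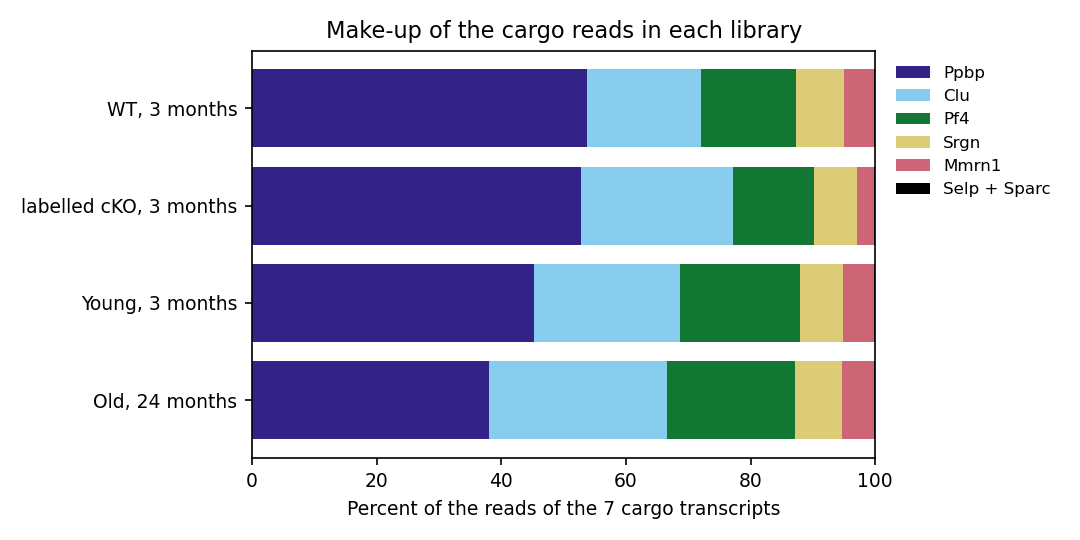
Share of each transcript in the reads of the 7 cargo transcripts (horizontal axis, percent), with 1 bar per library. Ppbp takes 53.8% in WT and 38% in Old, Clu takes 18.2% and 28.6%, and the part of Mmrn1 is thinnest in the library labelled cKO at 2.80%.

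Other alpha granule proteins were taken from a list of 48 genes. In the library labelled cKO over WT, 2 of 20 tested fell and none rose, while 4.22% of all tested genes passed in either direction. The median log2 ratio of the list was 0.03 over 28 genes. Thbs1, the adhesive glycoprotein thrombospondin, was 0.160 times WT (0.157 to 0.163) with 12152 against 74741 reads. Angpt1, a ligand of the endothelial receptor Tek, was 0.362 times WT (0.348 to 0.376) with 3693 against 10034 reads. Treml1 and Ecm1, the most abundant of the list per length, had ratios of 0.882 and 1.16. The median of the 7 transcripts was -0.45 in this comparison. Against Young the medians were 0.16 for the list, -0.04 for the 7 transcripts and 0.00 for all genes. Thbs1 also fell against Young, to 0.168 times (0.164 to 0.171), while Angpt1 at 0.560 times (0.538 to 0.582) did not pass and Pdgfa, a platelet growth factor chain, rose to 2.21 times (2.07 to 2.37).

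In Old over Young 5 of 21 tested genes of that list rose: Fn1 (fibronectin) at 7.29 times, Timp2 at 3.72, App at 3.22, Timp3 at 2.79 and F5 (coagulation factor V) at 2.60. Over all tested genes 4.26% rose in this comparison. Of 26 genes of the list 24 had a ratio above 1, and the median log2 ratio was 0.60. On the platelet identity scale 16 of 26 were above 1, the median was 0.10 and only Fn1 passed the rule, at 499 reads in Old and 75 in Young. With WT as the control library only F5 (2.27 times) and Fn1 (2.60 times) passed. Fn1 also passed between the wild-type libraries of 3 months, where WT was 2.80 times Young (2.13 to 3.70). F5, whose product multimerin 1 binds, numbered 65193 reads in WT and 45520 in the library labelled cKO, against 62165 in Young and 147767 in Old, so its high library was Old while Mmrn1 stayed level there.

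**Figure D4:**
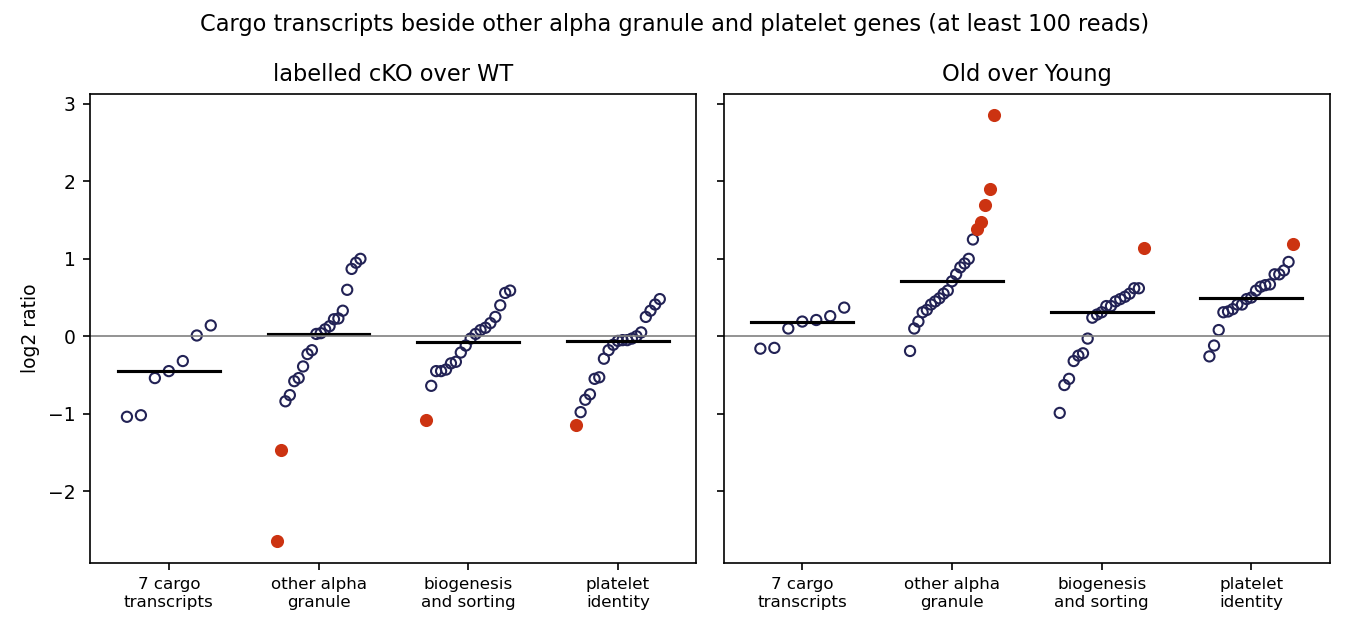
Log2 ratios of single genes (vertical axis) for the 7 cargo transcripts, other alpha granule proteins, granule biogenesis and sorting genes and platelet identity genes, for genes of 100 reads or more in their larger library, with filled points past the size rule and lines at the median of the points drawn. The cargo transcripts are all open circles, and in the library labelled cKO over WT the filled points of the other alpha granule proteins are Thbs1 and Angpt1. In Old over Young, setting platelet identity genes as the scale would move all points by -0.50.

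Genes of granule biogenesis and sorting numbered 23, all listed in both tables. Rab27b, a GTPase of granule secretion, fell in the library labelled cKO to 0.474 times WT (0.458 to 0.491; 5018 against 10394 reads), the only call among 18 tested, and it no longer passed under total reads, on the platelet identity scale or against Young (0.635 times, 0.614 to 0.658). Nfe2, a transcription factor of megakaryocytes, and Rab7, a GTPase of late endosomes, had the highest levels of the list, with ratios of 0.793 and 0.642. In Old, Sort1, a sorting receptor, rose to 2.20 times Young (2.13 to 2.27), again the only call, among 19 tested, and it too did not pass under those 2 scalings, nor against WT (2.03 times, 1.97 to 2.10). The list medians were -0.03 and 0.26 in these comparisons, in which 4.22% and 8.56% of all tested genes passed.

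Receptors and binding partners of the 7 proteins formed a list of 24. In the library labelled cKO Cd44, a receptor that binds serglycin chains, fell to 0.452 times WT (0.437 to 0.467), and Cd24a, a P-selectin ligand, rose to 2.18 times (2.06 to 2.32), among 12 tested. Against Young neither passed, with Cd44 at 0.638 times (0.617 to 0.660) and Cd24a at 1.78 times (1.68 to 1.88), and Podxl, a sialomucin that selectins can bind, rose to 2.49 times (2.04 to 3.07). In Old 4 of 15 tested rose: Cxcr2 at 25.8 times Young (353 against 15 reads), Lrp1 at 12 times, Stab1 at 3.88 times and Selplg at 3.10 times. Selplg lost its call on the platelet identity scale. Cxcr2 is also on the neutrophil list. Itga2b and Itgb1, the most abundant of the list, were 1.75 and 1.54 times Young without passing the rule. With WT as the control library 6 of 15 tested rose, beside 8.75% of all tested genes passing in either direction. These were the same 4, Itga2b at 2.05 times (2.04 to 2.06) and Lrp8 at 3.86 times (2.86 to 5.3). In Old over Young 22 of 24 ratios were above 1 (median log2 1.02), and 18 on the platelet identity scale (median 0.51). Over all tested genes 4.22% passed in the library labelled cKO over WT and 8.56% in Old over Young.

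Genes whose pattern was most like that of a member were sought by the Euclidean distance between log2 values centred on each gene's mean, over 4 libraries and 3498 genes with at least 1000 reads. Nearest to Selp were Gypc (0.12), Zranb3 (0.14) and Plek (0.14), and nearest to Mmrn1 were Ndufa6 (0.09), Cpeb4 (0.09) and Vps37a (0.10). Nearest to Pf4 were Mid1 (0.05), Mtmr6 (0.06) and Cdipt (0.07). Paip2, Ipo11 and Rassf4 came nearest to Ppbp, Capza1, Resf1 and Nt5c3 to Srgn, and Tspan14, Cerk and Samm50 to Clu. Sparc had too few reads for the search. Over only 4 libraries these distances are a description.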

How the data were processed

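RNA of mouse platelets was measured in 4 libraries, 1 per group. Per the submitters' processing notes the tools included featureCounts 1.5.0-p3, HISAT2 2.0.5, DESeq2 1.20.0 and CASAVA, and the build was mm10, with no role or order given. The authors deposited 2 tables of signal per gene and library, which are reads scaled to a common size within each table. After division by the step of each library, 100.00% of values were whole to within 0.001 read. The design had assumed counts, so the recovered reads were used. The authors' deposited table also gives, per the file headers, gene lengths, a log2 fold change, and the p-value before and after adjustment. A further 4 per-sample columns match no sample and were not used.

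Ratios were scaled by TMM (edgeR 4.0.16, R 4.3.3) for each pair, with exact 95% Clopper-Pearson intervals of the share of a gene's reads in 1 of the 2 libraries. These cover counting error only, as no molecular identifiers are described. No count test was run, since 1 library per group leaves no residual degrees of freedom. For comparisons across the tables, genes in both were used. List medians took genes with at least 20 reads over both libraries and a pseudocount of 0.5 read. Promoters came from RefSeq (GRCm38.p6) and gene models from GENCODE M21. The rule for named genes took all 7 members, Elavl1, each pathway list's genes past the size rule and its 2 most abundant, and the 3 genes most like a member. Pdgfa, Podxl and Lrp8 were named after their values were seen. The members and lists were chosen with earlier results of these data known. Alternatives covered scaling, the bound, the read minimum, the deposited values and the control library.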

Additional observations from a re-analysis of the deposited data

How the results depend on the processing

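No paired analysis was possible because each group is 1 library. No member passed the 2-fold rule under any scaling or control library tried. Lowering the read minimum could not change this, because every member had at least 161 reads in each library. At a bound of 1.5-fold, 2 members passed in the library labelled cKO over WT (Selp and Mmrn1, lower) and 1 in WT over Young (Ppbp, higher). In the library labelled cKO over WT the genes passing numbered 848 at 1.5-fold, 27 at 4-fold, 571 at a minimum of 20 reads and 841 with no minimum, against 265. Other alpha granule proteins passing numbered 4 at 1.5-fold and 1 at 4-fold, against 2. In Old over Young the genes passing numbered 1518, 108, 1194 and 1738 under the same 4 settings, and 1166 on the platelet identity scale (139 higher, 1027 lower), against 558 (278 higher, 280 lower). Total reads gave 225 higher and 425 lower, and the upper quartile 380 and 178. Other alpha granule proteins passing there numbered 10 at 1.5-fold, 1 at 4-fold, 8 with no minimum, 9 under the upper quartile, 1 on the platelet identity scale and 2 with WT as control, against 5. In WT over Young the genes numbered 339 at 1.5-fold, 4 at 4-fold, 293 at 20 reads and 478 with no minimum, against 64. The bound and the minimum change which genes can pass by construction.

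Scaling shifted all genes in Old over Young by -0.16 (total reads), 0.14 (upper quartile) and -0.50 (platelet identity), and in WT over Young by -0.11 (total reads) and -0.13 (platelet identity). In the library labelled cKO over WT the log2 ratio ranged over the scalings from -1.04 to -0.99 for Selp and from -1.02 to -0.97 for Mmrn1. In WT over Young, Pf4 was below 1 under total reads, platelet identity and the deposited values, and Clu was above 1 under the upper quartile. Over all alternatives 77 member ratios moved by more than their counting interval and 189 did not. The bound and the read minimum cannot move a ratio, so part of the 189 was fixed by construction. List medians were recomputed with a pseudocount of 5 reads and with a minimum of 100 reads over both libraries. Of these, 3 moved by more than 0.1 (log2) and 29 did not. Scaling could move them further: on the platelet identity scale in Old over Young the median of the 7 went from 0.19 to -0.31. That of the other alpha granule proteins went from 0.60 to 0.10. In WT over Young the deposited values cross tables that the authors scaled separately. Sparc, at 161 to 195 reads, is limited by depth.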

Other observations

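Relatives of the 7 cargo genes were sparse in these platelets. Of a list of 9 other CXC chemokine genes, 3 were listed in both tables. Cxcl5 reads numbered 430 in WT and 270 in the library labelled cKO, against 379 in Young and 526 in Old, and Cxcl3 had 68, 68, 41 and 49. Cxcl5 was 0.617 times WT in the library labelled cKO (0.528 to 0.720) and 1.52 times Young in Old (1.33 to 1.74), neither past the size rule. Emilin2, a relative of Mmrn1 with the same kind of domains, rose in Old to 11.5 times Young (8.21 to 16.4), at 398 against 38 reads.

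Enzymes that build glycosaminoglycan chains, the part of serglycin that holds cargo, numbered 29 on the list. None of 12 tested passed the size rule in the library labelled cKO over WT, with a median log2 ratio of 0.16. In Old, Chst3, a chondroitin sulfotransferase, fell to 0.307 times Young (0.234 to 0.400), at 73 against 260 reads, the only call among 12 tested. Chst12 and Csgalnact1, the most abundant of the list per length, had ratios of 1.29 and 1.51 there. Over all tested genes 4.22% passed in the library labelled cKO over WT and 8.56% in Old over Young.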
